A study of Mus musculus with 6 samples.

Results

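Mitophagy is the removal of mitochondria by autophagosomes, and its receptors and adaptors join the mitochondrial surface to the LC3 and GABARAP proteins of the growing autophagosome. The 10 genes described here were chosen by name, with earlier results of these data known. They included the receptors Bnip3, Bnip3l, Fundc1, Bcl2l13 and Phb2, the kinase gene Pink1, and the ubiquitin-binding adaptors Optn, Nbr1 and Tax1bp1. Fam162a, a gene of a mitochondrial protein, is grouped with the receptors here, without a claim that its product binds LC3. All 10 were listed among the 25330 genes of the deposited tables, and all 10 were among the 14020 genes with enough counts to be tested. The data were 6 stranded mRNA libraries of AML12 cells, a mouse hepatocyte line, 3 of Control cells and 3 of cells after hypoxia and reoxygenation, labelled H6R2. Cells of both groups carried the WT genotype and were routinely grown with 10% fetal bovine serum, an ITS supplement and dexamethasone in 5% CO2. Control cells stayed at 21% oxygen. H6R2 cells were moved to medium lacking serum and glucose, spent 6 h at 1% oxygen and were then reoxygenated for 2 h, so the effects of oxygen and of medium cannot be told apart. The labels number the replicates 1 to 3 but do not say that they were separate cultures, so p-values measure the spread between these libraries, which may be technical.

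Receptor-mediated mitophagy needs no ubiquitin: proteins of the outer mitochondrial membrane such as BNIP3, its paralog BNIP3L (also called NIX) and FUNDC1 bind LC3 directly. Bnip3, Bnip3l and Fam162a are known transcriptional targets of the hypoxia-inducible factors (HIF). In the ubiquitin-dependent route, PINK1 gathers on depolarised mitochondria and phosphorylates ubiquitin and the ligase Parkin, after which adaptors such as optineurin (Optn), NBR1 and TAX1BP1 bind the ubiquitin chains. In bulk libraries, fewer cells that express a gene and less RNA per cell cannot be told apart.

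Library totals ranged from 20438746 to 21854790 counts. Of the 10 hepatocyte markers listed, 9 could be tested, with 3 higher and 5 lower after H6R2 (edgeR's quasi-likelihood test). The higher ones were Cdh1 and the keratin genes Krt8 and Krt18, and the lower ones were Alb and Ttr, Trf, Apoa1 and Hnf4a, with log2 fold changes of -3.07, -1.48, -0.99 and -0.41 for the last 4. Krt8 and Krt18 were abundant, with means of 51381 ± 1351 and 32116 ± 1095 scaled counts in Control (SD, n = 3 each). Scaled counts are counts brought to a common effective library size. Alb, which encodes albumin, was low in this line, at 513, 129 and 197 scaled counts in the 3 Control libraries and between 33.4 and 46.3 in H6R2. Control replicate 1 stood apart in Alb, Apoe and Serpina1a, and Serpina1a had 57.8 scaled counts there against at most 1.08 in each of the other libraries. The other liver transcripts did not share this. Ttr was highest in Control replicate 3, at 398 scaled counts against 326 in replicate 1. Trf and Apoa1 were close in these 2 libraries, and Hnf4a was lowest in Control replicate 1. Of the 11 markers of other liver cells, 10 were listed, and 8 of these were too low to be tested. The other 2 were the biliary keratin gene Krt19, between 17869 and 38824 scaled counts over the libraries, and the macrophage marker Cd68, between 15.2 and 137, both higher in H6R2. The part of these marker changes and of other cells in the results was not tested. Without Control replicate 1 the counts of members called were the same as with it, 8 higher and 1 lower.

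After H6R2, 8 of the 10 genes were higher and 1, Fundc1, was lower at an adjusted p under 0.05 (edgeR's quasi-likelihood test, p adjusted by Benjamini-Hochberg over all tested genes). Over all 14020 tested genes, the background was 31.0% called higher and 31.8% called lower. The H6R2 and Control libraries did not overlap for 7 genes that were higher and 1 that was lower, where 32.5% and 33.5% of all tested genes did so. Bnip3, Bnip3l and Fam162a (3 of 10), called the HIF-driven receptors here, were also at least 2-fold higher, against 4.25% of all tested genes. The median log2 fold change of the 10 genes was 0.48, beside -0.01 over all tested genes. It was 1.48 for the HIF-driven receptors and 0.49 for the ubiquitin-dependent adaptors.

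**Figure D1:**
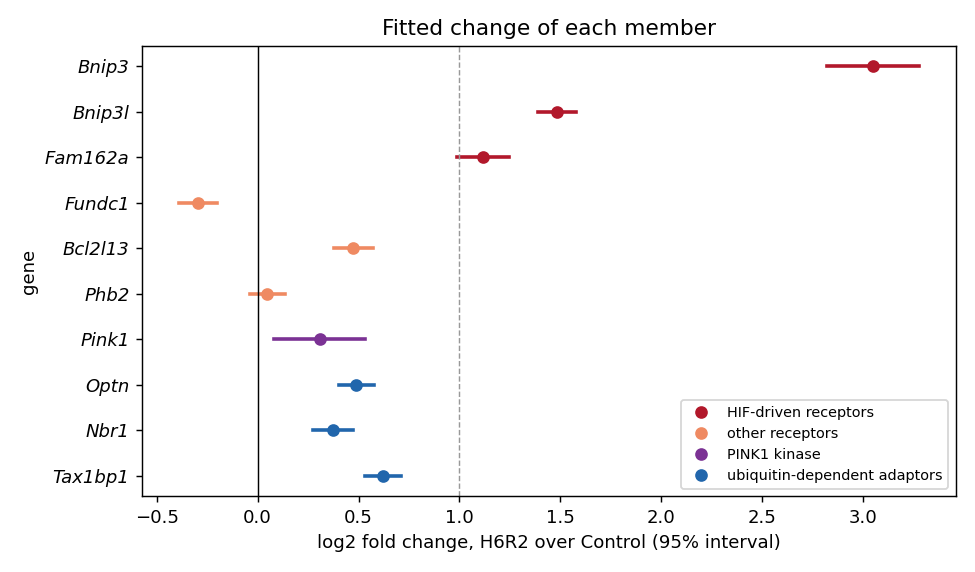
Fitted log2 fold change of each gene (H6R2 over Control) with its 95% confidence interval, coloured by role; the dashed line marks a 2-fold increase. Bnip3 lies at 3.05, Bnip3l and Fam162a at 1.48 and 1.12, the 3 adaptors between 0.37 and 0.62, and Fundc1 below 0 at -0.29.

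Promoter windows of receptors and of an adaptor are shown because HIF is known to bind the core sequences ACGTG and GCGTG. The windows are the 250 bases before a RefSeq transcript start (GRCm38.p6), on the strand of the gene and read 5′ to 3′, and capitals mark ACGTG or GCGTG on either strand (on the opposite strand they read CACGT and CACGC). Bnip3 (chr7:138909507-138909756, minus strand, the last 13 bases inside the gene as the deposited tables place it) and Fam162a (chr16:36071562-36071811, minus strand) are shown from the HIF-driven receptors, and Optn (chr2:5064118-5064367, minus strand) from the adaptors. Optn was the only one of the 3 adaptors with no ACGTG in a window, so it does not stand for them in this.
Bnip3: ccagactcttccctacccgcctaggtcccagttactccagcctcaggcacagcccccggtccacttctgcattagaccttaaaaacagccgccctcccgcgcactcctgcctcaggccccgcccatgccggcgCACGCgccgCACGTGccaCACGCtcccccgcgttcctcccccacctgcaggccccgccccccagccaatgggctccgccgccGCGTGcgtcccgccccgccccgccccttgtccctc
Fam162a: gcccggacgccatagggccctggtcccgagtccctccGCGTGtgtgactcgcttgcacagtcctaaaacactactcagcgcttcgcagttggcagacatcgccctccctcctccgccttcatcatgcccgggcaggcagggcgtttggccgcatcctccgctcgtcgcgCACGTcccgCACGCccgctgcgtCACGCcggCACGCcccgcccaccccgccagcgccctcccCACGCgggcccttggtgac
Optn: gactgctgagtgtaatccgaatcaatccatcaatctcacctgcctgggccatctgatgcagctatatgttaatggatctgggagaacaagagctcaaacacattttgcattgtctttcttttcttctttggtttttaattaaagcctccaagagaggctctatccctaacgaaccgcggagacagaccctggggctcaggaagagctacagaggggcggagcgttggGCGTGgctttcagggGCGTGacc

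The Bnip3 window held ACGTG once on each strand, overlapping in the palindrome CACGTG that begins 108 bases before the start, and 3 matches to GCGTG. The Fam162a window held 1 ACGTG, 81 bases before the start, and 5 GCGTG. The Optn window held no ACGTG and 2 GCGTG, 23 and 8 bases before the start. Among all 32851 promoter windows of this length, 16.6% held ACGTG, 28.2% held GCGTG, and 2.67% held 3 or more GCGTG. Of the 10 genes, 9 had a window and these had 11 windows in all, with ACGTG in a window of 5 genes and GCGTG in a window of 6. Bnip3l had no window in the table used. ACGTG also stood in a window of Phb2, Nbr1 and Tax1bp1, and the Tax1bp1 window that held it lay with all 250 bases inside the deposited gene span. The only Fundc1 window, which held neither sequence, also lay wholly inside the gene span. Of 12 reference HIF target genes, which had 17 windows, 9 had ACGTG in a window. These counts are of genes and the shares above are of windows, and a gene with more windows has more chances of a match. A match describes letters in a window and not a bound site.

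Bnip3 encodes a BH3-like protein of the outer mitochondrial membrane that binds LC3 and can also promote cell death. The gene lies at chr7:138890836-138909519 on the minus strand (GRCm38, exons and introns together, as for all spans given here). Its scaled counts were 569, 473 and 665 in the Control libraries and 4628, 4691 and 4808 in the H6R2 libraries, in the order of their replicate numbers, as everywhere here. Every H6R2 library was far above every Control library. The fitted fold change was 8.27 (95% confidence interval 7.07 to 9.67), a log2 fold change of 3.05 (SE 0.0974, adjusted p = 1.21e-08 by edgeR's quasi-likelihood test). By fold change it ranked 37 among the 14020 tested genes.

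The Control libraries differed from each other in Bnip3 by more than counting error gives. Their coefficient of variation was 16.8%, where counting alone would give 4.09%, and it stood at percentile 99.1 of the 4195 genes whose Control level was within 2-fold of that of Bnip3 (median 4.89%). Control replicate 3 was highest and Control replicate 2 lowest, and leaving out each library in turn kept the log2 fold change between 2.93 and 3.17. With Bnip3, 5 of the 10 genes had this order of Control libraries, the others being Bnip3l, Fam162a, Bcl2l13 and Phb2. The HIF target Pdk1, which encodes a kinase that inhibits pyruvate dehydrogenase, had it as well. The ratio of Control replicate 3 to Control replicate 2 was 1.41 for Bnip3, 1.24 for Fam162a and 1.48 for Pdk1, but 1.03 for Bnip3l and 1.04 for Slc2a1. Of the 12 reference HIF targets, 3 were both highest in Control replicate 3 and lowest in Control replicate 2. The share of all tested genes with this order was not counted. The source of this spread was not tested.

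Of the exon length of Bnip3, 22.3% (504 bases) is shared with Gm45507, a gene on the opposite strand. Gm45507 had 109, 96 and 112 counts in the Control libraries and 641, 660 and 816 in the H6R2 libraries, a log2 fold change of 2.87 (adjusted p = 5.33e-24, same test). Whether reads were assigned by strand is not given in the sources used here, so part of the reads of both genes cannot be told apart. With the Gm45507 counts subtracted from Bnip3, an alternative chosen after seeing the data, the log2 fold change of Bnip3 was 3.08 (adjusted p = 6.93e-07, same test). Gm45507 had fewer counts than Bnip3 and a similar change, so the subtraction could move the value little. It does not test how the reads were assigned.

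Bnip3l encodes NIX, best known for clearing mitochondria from maturing red cells (chr14:66985239-67008877, minus strand). It had 963, 954 and 986 scaled counts in the Control libraries and 2710, 2696 and 2719 in the H6R2 libraries. The groups were widely separated, and the libraries within a group were nearly level. The log2 fold change was 1.48 (SE 0.0465, 95% interval 1.39 to 1.58), a 2.80-fold rise (adjusted p = 2.62e-24, edgeR's quasi-likelihood test). Its exons overlapped no other gene, but the pseudogene Bnip3l-ps, listed with 8 to 14 counts in Control and 28 to 34 in H6R2, could share reads with it. The pseudogene rose by 1.61 on the log2 scale (adjusted p = 2.27e-05, same test).

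Fam162a encodes a small mitochondrial protein that HIF-1 induces and that has been linked to cell death in hypoxia (chr16:36043844-36071515, minus strand). Scaled counts were 735, 699 and 869 in Control and 1734, 1643 and 1624 in H6R2. The lowest H6R2 library was still well above Control replicate 3, the highest of its group. The log2 fold change was 1.12 (SE 0.0622, 95% interval 0.99 to 1.25, adjusted p = 7.27e-15 by the same test), so the interval reached just below 2-fold. As in Bnip3, the Control libraries were spread, with a coefficient of variation of 11.7%.

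Fundc1, the receptor whose binding to LC3 is known to be controlled by phosphorylation, was the gene that fell (chrX:17556564-17572325, minus strand). It had 1753, 1720 and 1691 scaled counts in Control and 1418, 1392 and 1402 in H6R2. All H6R2 libraries lay below all Control libraries. The change was -18.4%, a log2 fold change of -0.29 (SE 0.0466, adjusted p = 1.43e-06 by edgeR's quasi-likelihood test), and it stayed between -0.40 and -0.28 over the 8 alternatives run on all 6 libraries.

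Bcl2l13, a BCL2 family protein of the outer membrane that acts as a mammalian counterpart of the yeast receptor Atg32, had 1706, 1663 and 1721 scaled counts in Control and 2214, 2413 and 2446 in H6R2 (chr6:120836212-120892842, plus strand). The groups did not overlap, and the gene rose by a log2 fold change of 0.47 (SE 0.0470, adjusted p = 8.54e-11, same test). It shares 6.91% of its exon length with Bid on the opposite strand, and Bid fell, with a log2 fold change of -0.37 (adjusted p = 1.15e-08, same test).

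Phb2 encodes a prohibitin of the inner membrane that can bind LC3 once the outer membrane has ruptured (chr6:124712336-124716950, plus strand). It had 2884, 2738 and 2937 scaled counts in Control and 2996, 2965 and 2887 in H6R2. The groups overlapped, and the log2 fold change of 0.05 (95% interval -0.04 to 0.14) did not pass the test (adjusted p = 0.347, edgeR's quasi-likelihood test). Its sign depended on the scaling, at -0.02 when libraries were scaled by the upper quartile and -0.06 when by their totals, and 7.96% of its exon length is shared with other genes.

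Pink1, the kinase gene, was the lowest of the 10 in both groups (chr4:138313409-138326307, minus strand). Scaled counts were 207, 154 and 172 in Control and 202, 215 and 243 in H6R2. Control replicate 1 lay above H6R2 replicate 1, so the groups overlapped. The fit gave a log2 fold change of 0.31 (SE 0.111, 95% interval 0.08 to 0.53) with an adjusted p of 0.0166 by edgeR's quasi-likelihood test. That call rested on single libraries: without Control replicate 2 the log2 fold change was 0.21 (adjusted p = 0.109, same test), and without H6R2 replicate 3 it was 0.23 (adjusted p = 0.109, same test). It also missed the threshold in 5 of the 8 alternatives on all libraries, with an adjusted p of 0.0756 by DESeq2 and 0.116 by edgeR with library totals alone. The transcript of Parkin, the ligase that PINK1 activates, listed as Park2, had 3 counts in Control replicate 1 and 0 in every other library, which is at or under the floor of 3 counts in both groups.

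**Figure D2:**
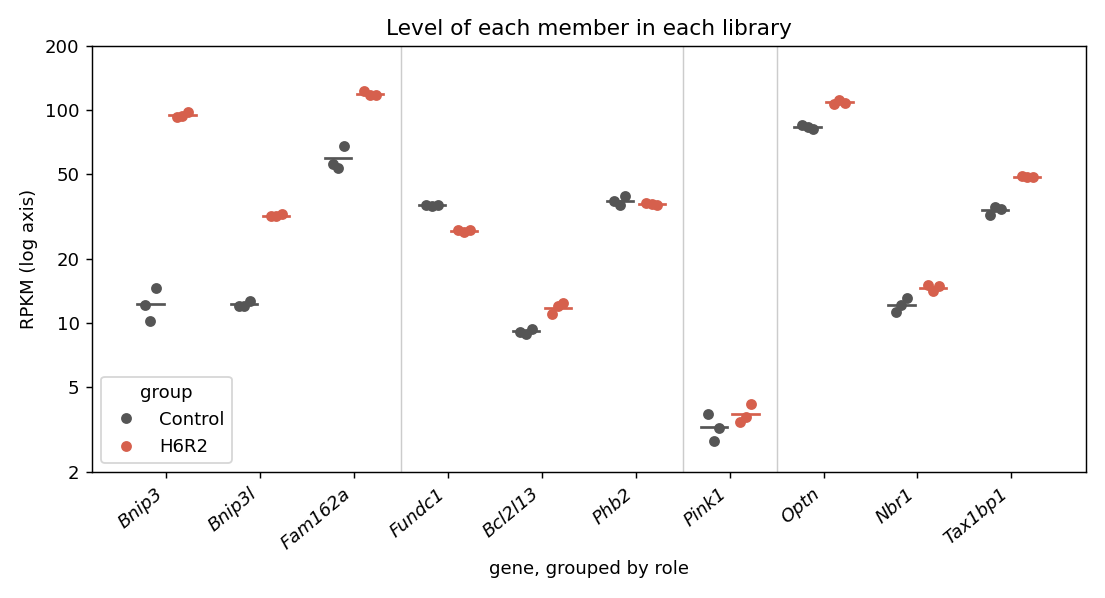
Level of each of the 10 genes in each library, in RPKM on a log axis; points are libraries, the short lines are group means, and vertical lines separate HIF-driven receptors, other receptors, Pink1 and adaptors. Bnip3 moves from between 10.2 and 14.6 RPKM in Control to between 92.4 and 97.7 in H6R2, and only Phb2 and Pink1 have overlapping groups.

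All 3 adaptors were higher, by less than 2-fold. Optn, whose product is recruited to damaged mitochondria with the kinase TBK1, had 6587, 6377 and 6164 scaled counts in Control and 8847, 9175 and 8818 in H6R2 (chr2:5020642-5064051, minus strand). Its groups did not overlap, and it rose by a log2 fold change of 0.49 (SE 0.0425, 1.40-fold, adjusted p = 3.67e-12 by edgeR's quasi-likelihood test). Tax1bp1, an adaptor that binds ubiquitin and LC3 and also dampens NF-kB signalling, had 6662, 7213 and 6905 scaled counts in Control and 10821, 10639 and 10489 in H6R2 (chr6:52713729-52766780, plus strand). Of Optn, Nbr1 and Tax1bp1 it had the largest rise, a log2 fold change of 0.62 (SE 0.0432, 1.54-fold, adjusted p = 1.30e-14, same test), again without overlap. Nbr1, an adaptor best known for aggregates and peroxisomes, had 1609, 1717 and 1810 scaled counts in Control and 2292, 2139 and 2219 in H6R2 (chr11:101552149-101581951, plus strand). The groups were separate, and the log2 fold change was 0.37 (SE 0.0484, 1.29-fold, adjusted p = 3.18e-08, same test). At most 1.95% of the exon length of an adaptor was shared with another gene. The highest upper bound among these 3 was 0.71 on the log2 scale, for Tax1bp1, below the lowest lower bound among the HIF-driven receptors, 0.99 for Fam162a. This contrast covers the 3 chosen adaptors and not ubiquitin-binding adaptors as a class.

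Per length, in RPKM, the order of the genes differed between the groups. In Control, Optn was highest with a mean of 83.2 ± 1.52 RPKM (SD, n = 3), followed by Fam162a with 59.3 ± 7.80, Phb2 with 37.6 ± 1.73, Fundc1 with 35.8 ± 0.171 and Tax1bp1 with 34.0 ± 1.55. Phb2 and Fundc1 overlapped over the libraries. Bnip3 and Bnip3l, at 12.3 ± 2.22 and 12.3 ± 0.387 RPKM, and Nbr1, at 12.2 ± 0.907, could not be separated. Bcl2l13 stood at 9.14 ± 0.264 RPKM and Pink1 at 3.26 ± 0.471.

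In H6R2, no neighbours in the order overlapped. Fam162a was highest with 119.5 ± 3.47 RPKM (SD, n = 3), then Optn with 108.6 ± 2.17 and Bnip3 with 94.7 ± 2.71. Bnip3 stood in the sixth place in Control, level with Bnip3l and Nbr1, and in the third in H6R2. Below these came Tax1bp1 with 48.5 ± 0.392, Phb2 with 36.1 ± 0.361, Bnip3l with 32.0 ± 0.405 and Fundc1 with 27.2 ± 0.300, and then Nbr1 with 14.7 ± 0.507, Bcl2l13 with 11.8 ± 0.711 and Pink1 with 3.75 ± 0.389. Fundc1 was above Bnip3 in every Control library, at 2.45 to 3.50 times its RPKM, and below it in every H6R2 library, at 0.281 to 0.295 times.

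As a difference of group means, Bnip3 gained 82.4 RPKM and Fam162a 60.3, but Bnip3l 19.7. Optn gained 25.4 RPKM, more than Bnip3l, although its fold change was smaller. Tax1bp1 gained 14.6 RPKM, Bcl2l13 2.67 and Nbr1 2.48, while Fundc1 fell by 8.64 RPKM. The differences were 0.493 RPKM for Pink1 and -1.46 for Phb2, whose groups overlapped. RPKM is made from library totals, the scaling under which the fitted change of Phb2 was also below 0.

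**Figure D3:**
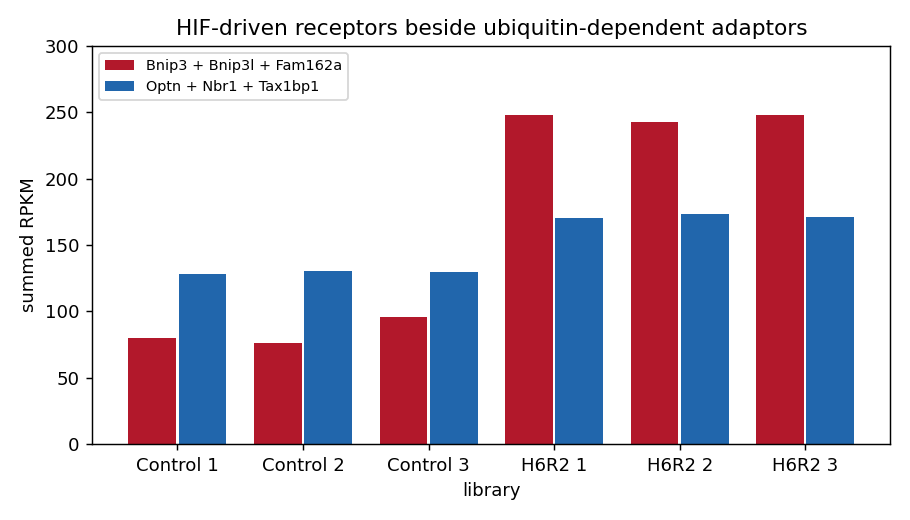
Summed RPKM in each of the 6 libraries of the HIF-driven receptors (Bnip3, Bnip3l and Fam162a, red) and of the ubiquitin-dependent adaptors (Optn, Nbr1 and Tax1bp1, blue). The receptor sum lies below the adaptor sum in the 3 Control libraries and above it in the 3 H6R2 libraries, a crossing that is not seen without Fam162a or in scaled counts.

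The contrast between HIF-driven receptors and ubiquitin-dependent adaptors was read within each library, where it does not depend on how libraries are scaled. The summed receptor level was 80.1, 75.9 and 95.5 RPKM in Control and 248, 243 and 248 in H6R2. The adaptor sum was 128, 130.2 and 129 RPKM in Control and 171, 173 and 171 in H6R2. Both sums were higher in every H6R2 library, and the receptor RPKM per adaptor RPKM went from 0.624, 0.583 and 0.738 in Control to 1.45, 1.40 and 1.45 in H6R2. The crossing of 1 rested on the scale and on Fam162a, whose short exon length of 635 bases raises its RPKM. Without Fam162a the ratio was between 0.171 and 0.211 in Control and between 0.725 and 0.760 in H6R2, and in scaled counts of all 6 genes it was between 0.139 and 0.169 and between 0.411 and 0.425. On each scale every H6R2 library was above every Control library. Of the summed RPKM of the 10 genes, the receptors held 26.2% to 30.5% in Control and 49.1% to 49.9% in H6R2, and the adaptors held 41.4% to 45.0% and then 34.3% to 35.0%. The receptor share also rested on Fam162a, which by group means held 19.8% in Control and 24.1% in H6R2. Bnip3 held 4.12% and then 19.1%, and Bnip3l 4.11% and then 6.43%. These sums describe transcripts of chosen genes, and no test was made on them.

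Each of the 9 ratios of a HIF-driven receptor to an adaptor was higher in every H6R2 library than in every Control library. The mean log2 shift ran from 0.50 for Fam162a over Tax1bp1 to 2.69 for Bnip3 over Nbr1. The ratio of Bnip3 to Optn in RPKM was between 0.123 and 0.179 in Control and between 0.847 and 0.903 in H6R2. A two-sided exact permutation test of 3 libraries against 3 cannot give a p below 0.1, so no p is given for a ratio. The receptors also differed among themselves, with RPKM ratios of Bnip3 to Bnip3l of 1.01, 0.845 and 1.15 in Control and of 2.91, 2.96 and 3.01 in H6R2.

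The genes outside the 10 whose profile over the 6 libraries lay nearest to that of Bnip3, by Euclidean distance between centred log2 scaled counts among 10169 genes with a mean of at least 100 counts, were Ptgs2 (0.269), Ero1l (0.286), Ndrg1 (0.293), Gm17035 (0.308) and Slc2a1 (0.316). Ptgs2 encodes the inducible cyclooxygenase, Ero1l an oxidase of the endoplasmic reticulum, Ndrg1 a hypoxia-responsive protein and Slc2a1 the glucose transporter GLUT1. Gm17035 overlaps Ndrg1 on the opposite strand. Their log2 fold changes were between 3.01 (Slc2a1) and 3.28 (Gm17035). The distance takes in the difference between the groups, so near genes have similar fold changes by construction. Nearest to Optn were Zfp212, Exoc4, Ccdc50, Cxxc1 and Acadvl, at distances of 0.0331 to 0.0454.

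Other mitophagy genes were described by 5 lists with 61 genes, of which 59 were tested. Of these, 29 were higher, 11 were lower and 19 did not pass (edgeR's quasi-likelihood test), with a median log2 fold change of 0.15 beside -0.01 over all tested genes. Over all tested genes the same test called 31.0% higher and 31.8% lower. This is the background for each list below, except where library totals alone are named. With library totals alone, which moves the median of all tested genes to -0.12, the split was 21 higher and 18 lower. The share of all tested genes called with library totals was not counted, so counts under library totals, here and below, have no background beside them. Only Hk2 was at least 2-fold higher, and none was at least 2-fold lower.

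**Figure D4:**
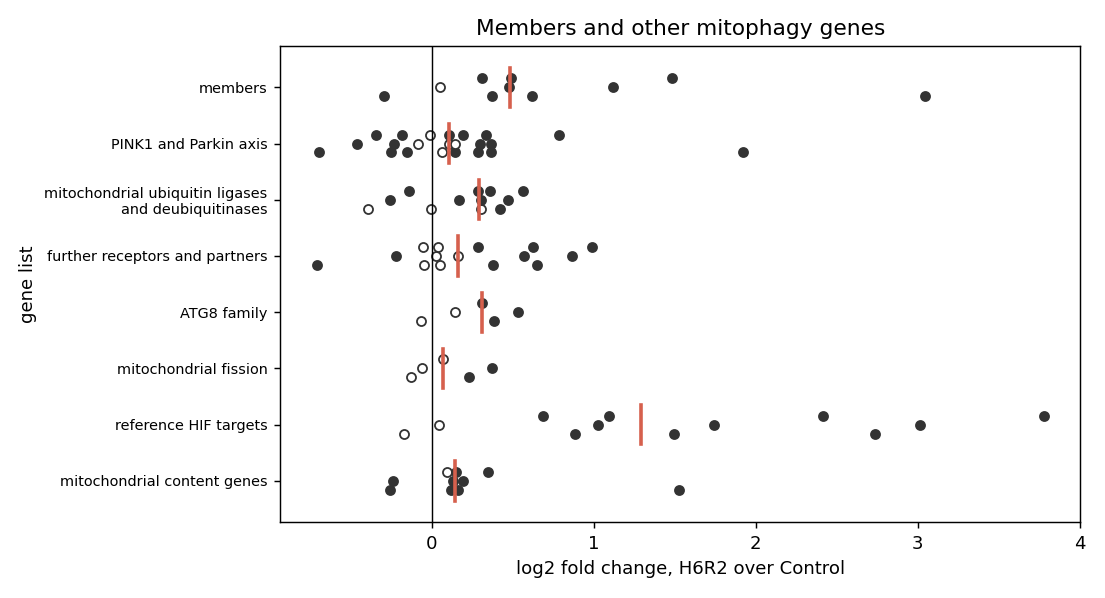
Log2 fold change (H6R2 over Control) of every tested gene of the 10 described genes and of each comparison list; filled points passed an adjusted p of 0.05, open points did not, and red lines are medians. The 10 genes have a median of 0.48, the 5 further mitophagy lists have medians between 0.07 and 0.31, and the reference HIF targets have a median of 1.29.

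The PINK1 and Parkin axis, which holds the import machinery, proteases and Parkin substrates around PINK1, had 22 of its 23 genes tested, with 10 higher, 7 lower and 5 not passing (median 0.10). Hk2, a hexokinase that binds the outer membrane, went from 67.7 ± 5.66 to 257 ± 12.4 scaled counts (SD, n = 3 each), a log2 fold change of 1.92 (adjusted p = 6.17e-16, edgeR's quasi-likelihood test). It is also a known HIF target. Ambra1, an autophagy regulator that can act at mitochondria, had a log2 fold change of 0.78, and Vdac1, a Parkin substrate of the outer membrane, 0.37. Genes that fell included Tomm40, the channel of the import complex at which PINK1 gathers, from 1042 ± 91.2 to 643 ± 51.8 (log2 fold change -0.70, adjusted p = 1.79e-10, same test), Vcp, the ATPase that extracts ubiquitinated proteins (-0.46), and the stress protease gene Oma1 (-0.34). With library totals alone, 7 genes of this list were higher and 9 were lower.

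Among 12 ubiquitin ligases and deubiquitinases of mitochondria, 7 were higher, 2 lower and 3 did not pass (median 0.29, same test). Usp30, the deubiquitinase that opposes Parkin, rose by 0.56 on the log2 scale (adjusted p = 6.32e-08). The ligase genes Rnf185 and Rnf41 rose by 0.47 and 0.42, and the ligase genes Huwe1 and Stub1 fell by 0.26 and 0.14 on the log2 scale. Under library totals alone, 5 were higher and 3 were lower.

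Of 16 further receptors and partners, 15 were tested, with 7 higher, 2 lower and 6 not passing (median 0.16, same test), and the highest log2 fold change of the list was 0.99, below 1.12 for Fam162a. Src, a tyrosine kinase that phosphorylates FUNDC1, went from 1468 ± 33.3 to 2916 ± 154 scaled counts (log2 fold change 0.99, adjusted p = 3.70e-19). Calcoco1, an LC3-binding adaptor, had a log2 fold change of 0.65. Ulk1, the autophagy kinase that also phosphorylates FUNDC1, fell from 368 ± 42.9 to 225 ± 4.72 scaled counts (log2 fold change -0.71, adjusted p = 3.04e-08), and Nipsnap1, whose product marks damaged mitochondria, had -0.22. Calcoco2, the gene of the adaptor NDP52, was between 4 and 8 counts in every library and was not tested.

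Of the 5 ATG8 family genes, which encode the proteins that receptors and adaptors bind, Gabarapl1 and Gabarap rose by 0.39 and 0.31 on the log2 scale, Map1lc3a passed at a mean count under 100, and the other 2 did not pass. With library totals alone, 2 of this family were higher and 1, Map1lc3b, was lower, at a log2 fold change of -0.17. Of 5 mitochondrial fission genes, Dnm1l, the gene of the fission GTPase DRP1, rose by 0.37 (adjusted p = 5.27e-08, same test) and Mff, which encodes a receptor for DRP1, by 0.23 (adjusted p = 0.00154, or 0.0815 with library totals alone), while the other 3 did not pass. With library totals alone, 1 fission gene was higher and 2, Fis1 and Mief1, were lower, at -0.24 and -0.16 on the log2 scale.

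Of the 12 reference HIF targets, 10 were higher and none lower, 8 of them at least 2-fold (median 1.29, same test), and their log2 fold changes ran from -0.17 to 3.78. Slc2a1 had a log2 fold change of 3.01, the ankyrin repeat gene Ankrd37 2.74 and the collagen hydroxylase gene P4ha1 2.41. Bnip3, at 3.05, lay beside Slc2a1, and Bnip3l and Fam162a lay on either side of the median of the list. Of 10 genes for mitochondrial content, such as Cs, Tfam and Cox4i1, 7 were higher and 2 lower (median 0.14), and with library totals alone 2 were higher and 2 were lower.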

How the data were processed

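RNA of 3 Control and 3 H6R2 samples of AML12 cells was sequenced as stranded mRNA libraries with paired ends. Per the submitters' processing notes, reads were trimmed with Trimmomatic 0.36, mapped to GRCm38 and counted with featureCounts of Subread 1.5.1, and edgeR 3.12.1 was also used; the gene annotation and the strand setting of the counting are not given in the sources used here. The authors deposited, for each library, raw whole-number counts per gene and RPKM values made from count, gene length and library total. Totals of 20438746 to 21854790 counts limit the precision of low genes, and the intervals given cover the spread between libraries.

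The 10 members and all gene lists were chosen with earlier results of these data known. The groups were compared on the counts by edgeR 4.0.16 (R 4.3.3) with filterByExpr, TMM scaling, estimateDisp, glmQLFit set to robust and glmQLFTest. Its p-values were adjusted by Benjamini-Hochberg over 14020 genes, and the fit was tested on simulated data. The simulation had a single spread for all genes and few changed genes, so it does not test the fit where most genes are called, as here. Standard errors were derived from the F statistic. A member was past both thresholds at an adjusted p under 0.05 and a fold change of at least 2. Named genes are all members, up to 3 genes per direction and list with the largest change past the threshold and a mean count of at least 100, the 5 genes nearest to Bnip3 and to Optn, and genes overlapping a member; Pdk1, Map1lc3a, Map1lc3b, Fis1, Mief1, Park2, Calcoco2, Cs, Tfam and Cox4i1 were named from the lists outside this rule. The result of 1 gene that the rule names is not reported here. Groups were taken from the sample titles. Alternatives were DESeq2 1.42.0, upper quartile scaling, library totals, other count filters, the replicate block, limma-trend (limma 3.58.1) on log2(RPKM + 1) and log2(RPKM + 0.1), other fold thresholds and leaving out each library. A description of protein motifs that had been planned was not made, and promoter windows came from RefSeq (GRCm38.p6).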

Additional observations from a re-analysis of the deposited data

How the results depend on the processing

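Of 140 results for single members under alternatives, 129 kept their direction and side of the threshold, 7 kept their direction but no longer passed and 4 turned in sign. All of the 7 were Pink1, whose log2 fold change of 0.31 was 0.32 with DESeq2 (adjusted p = 0.0756), 0.24 with upper quartile scaling (0.0612), 0.20 with library totals alone (0.116), 0.16 with limma-trend on log2(RPKM + 1) (0.189) and 0.20 with limma-trend on log2(RPKM + 0.1) (0.185), and between 0.21 and 0.43 with a library left out. The 4 were Phb2, which was not called in any fit, at -0.0226 with upper quartile scaling, -0.0576 with library totals alone, -0.0548 with log2(RPKM + 1) and -0.0561 with log2(RPKM + 0.1). At a threshold of 4-fold, 1 member in place of 3 was past both thresholds, which was Bnip3. Of the other mitophagy genes, 19 in place of 29 were higher with either limma-trend fit, and 17 in place of 11 were lower with each of these and 18 with library totals alone; the cause was not tested. Same-numbered libraries of the 2 groups did not deviate together (correlations of -0.03, 0.00 and -0.01). These correlations cannot tell whether same-numbered samples were handled as pairs. With the replicate block 8 members were higher, 1 was lower and 3 were past both thresholds, with 29 higher and 11 lower among the other mitophagy genes. Depth limits Pink1 most among the members, with 158 to 243 counts per library, and transcript levels do not measure mitophagy.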

Other observations

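Among the genes of mitochondrial content, Ppargc1a, which encodes a coactivator of mitochondrial biogenesis, was named after its values were seen. It had 34.1 ± 1.77 scaled counts in Control and 98.5 ± 5.32 in H6R2 (SD, n = 3 each), a log2 fold change of 1.53 (adjusted p = 3.04e-09, edgeR's quasi-likelihood test), and it was the only gene of that list past 2-fold. Tfam, the packaging protein of mitochondrial DNA, and Hspd1, the mitochondrial chaperonin, were the genes of that list that fell, with log2 fold changes of -0.24 and -0.26 (adjusted p = 0.000361 and 4.22e-06, same test).

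Bcl2l1, which encodes the survival protein BCL-XL, and Tollip, a ubiquitin-binding adaptor, were also named after their values were seen. Their log2 fold changes of 0.62 and 0.57 (adjusted p = 6.21e-15 and 5.54e-12, edgeR's quasi-likelihood test) stood beside 0.62 for Tax1bp1. Tbk1, the kinase that phosphorylates optineurin, rose by 0.28 on the log2 scale (adjusted p = 7.06e-05, same test), and Optn by 0.49. The difference between the 2 genes was not tested.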
